A study of Mus musculus with 9 samples.

Results

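The genes described here are the ligands and receptors of axon guidance in mouse cortex and in cultures grown from injured cortex. They were chosen by gene symbol alone: every semaphorin, plexin, neuropilin, ephrin, Eph receptor, Slit, Robo, netrin and Unc5 receptor gene of the count table was taken, whatever its level. This gave 68 of 56748 genes, and 59 of them had enough counts to be tested. RNA was measured by sequencing polyadenylated transcripts in 9 libraries, 3 biological replicates in each of 3 groups, all from wild-type C57BL/6J mice aged 2 to 3 months. The first group was the reactive culture, cells of dissected lesion cores grown in medium with B27 and fetal bovine serum and collected whole, without a sort. The second was injured cortex, the lesion core of a grid of lancet stab wounds, dissociated and sorted to leave out neurons, debris and dead cells. The third was uninjured cortex, dissociated and sorted in the same way. The sample labels place the dissection of injured cortex and of the tissue for culture 1 day after injury and give 6 days of culture. The series' design text instead gives 3 days for injured cortex, and 24 h to dissection followed by 8 days in vitro for the cultures, so the times are uncertain.

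Axon guidance proteins tell growing axons where to go, by attraction or repulsion at the growth cone. Secreted semaphorins of the Sema3 class bind neuropilins, which signal with plexins, whereas most membrane semaphorins bind plexins directly. Ephrins are held on the cell surface and bind Eph receptor tyrosine kinases on the neighbouring cell, with signals in both directions. Slits bind Robo receptors, and netrins bind Dcc and the Unc5 receptors. In the adult brain the same families are used by glia, vessels and immune cells, and several of their ligands are known as barriers to axon growth at lesions.

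Total counts were 16667883 to 24302770 per culture library, 20389561 to 21135163 per injured library and 12205049 to 18577561 per uninjured library. Levels below are CPM, counts scaled to library size, adjusted by the trimmed mean of M values, and 1 count was worth 0.0340 to 0.0781 CPM. Pearson's r across genes, on log2 CPM, was 0.939 to 0.984 between libraries of the same group. Injured replicate 3 had the highest level of its group in 51 of the 59 guidance genes tested (86.4%), against 43.2% of all genes tested. Culture replicate 1 was the highest of its group in 42 (71.2%), against 36.0% of all genes. Uninjured replicates 2 and 3 held 182 and 151 CPM over 2003 olfactory and vomeronasal receptor genes, against 14.4 to 44.1 CPM in the other 7 libraries.

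The sorts and the cultures differed in their cell type markers, none of which was at 0 in a whole group. In culture, injured and uninjured libraries, 7 astrocyte genes summed to 92.6 to 163, 2130 to 3634 and 3663 to 6487 CPM. In the same order, 6 oligodendrocyte genes summed to 361 to 731, 10737 to 15526 and 16683 to 30016 CPM, and 6 microglia genes to 1510 to 2359, 4765 to 13402 and 7950 to 12454 CPM. The 6 mural cell genes did not move together. Acta2, an actin of smooth muscle and myofibroblasts, was at 3495, 3650 and 3113 CPM in cultures and at 26.6 to 132 CPM in the sorted libraries, while the pericyte genes Rgs5, Kcnj8, Abcc9 and Vtn were called lower in cultures in both comparisons. Pdgfrb was called higher in cultures against injured cortex (log2 fold change 1.47) and was not called against uninjured cortex (-0.09). In culture, injured and uninjured libraries, 6 fibroblast and meningeal genes summed to 214 to 529, 47.2 to 143 and 28.9 to 39.4 CPM, and 4 proliferation genes to 389 to 458, 90.2 to 134 and 3.23 to 4.13 CPM. In that order, 5 monocyte and macrophage genes summed to 400 to 569, 173 to 1265 and 22.3 to 49.8 CPM, and 5 neutrophil genes to 17.7 to 33.9, 238 to 356 and 23.9 to 83.5 CPM. The 7 endothelial genes summed to 81.3 to 121, 146 to 312 and 101 to 303 CPM, and the 8 neuronal genes to 28.7 to 33.0, 46.4 to 97.8 and 13.8 to 29.0 CPM. In bulk RNA of this kind, fewer cells of a type and less RNA per cell cannot be told apart.

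A few genes made up most of the guidance gene expression in each group. Compared per kilobase of exon, the highest mean level in cultures was that of Nrp1, at 27.0 CPM per kb, followed by Ntn4 at 12.5, Efna1 and Plxna1 at 10.7 each and Plxnb2 at 10.2 CPM per kb. The libraries of the last 4 genes overlapped, so their order is not resolved, while each culture library held more Nrp1 (23.7 to 31.2 CPM per kb) than any held of those 4. In injured cortex the order per kb was Efna1 (13.2 CPM per kb), Efnb3 (11.6), Sema4d (10.7), Plxnb2 (9.08) and Nrp1 (6.36). The first 4 are not resolved. The ranges of Efnb3 (6.98 to 17.1), Sema4d (8.60 to 13.3) and Plxnb2 (5.89 to 14.0) each reached that of Efna1 (12.4 to 13.9). The range of Nrp1 (5.05 to 7.60) overlapped those of Efnb3 and Plxnb2, so its place is not resolved either. In uninjured cortex it was Efna1 (22.7 CPM per kb), Efnb3 (17.3), Sema4d (8.91), Unc5b (8.15) and Ephb1 (7.55). There the ranges of Efna1 (19.2 to 24.8) and Efnb3 (14.3 to 22.3) overlapped, as did those of the other 3, so the order within each set is not resolved. The 10 highest genes of each group held 84.7% of the summed level per kb in cultures, 71.3% in injured cortex and 73.4% in uninjured cortex. Nrp1 thus led in cultures, and Efna1 and Efnb3 were among the leading genes in both sorted groups.

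**Figure D1:**
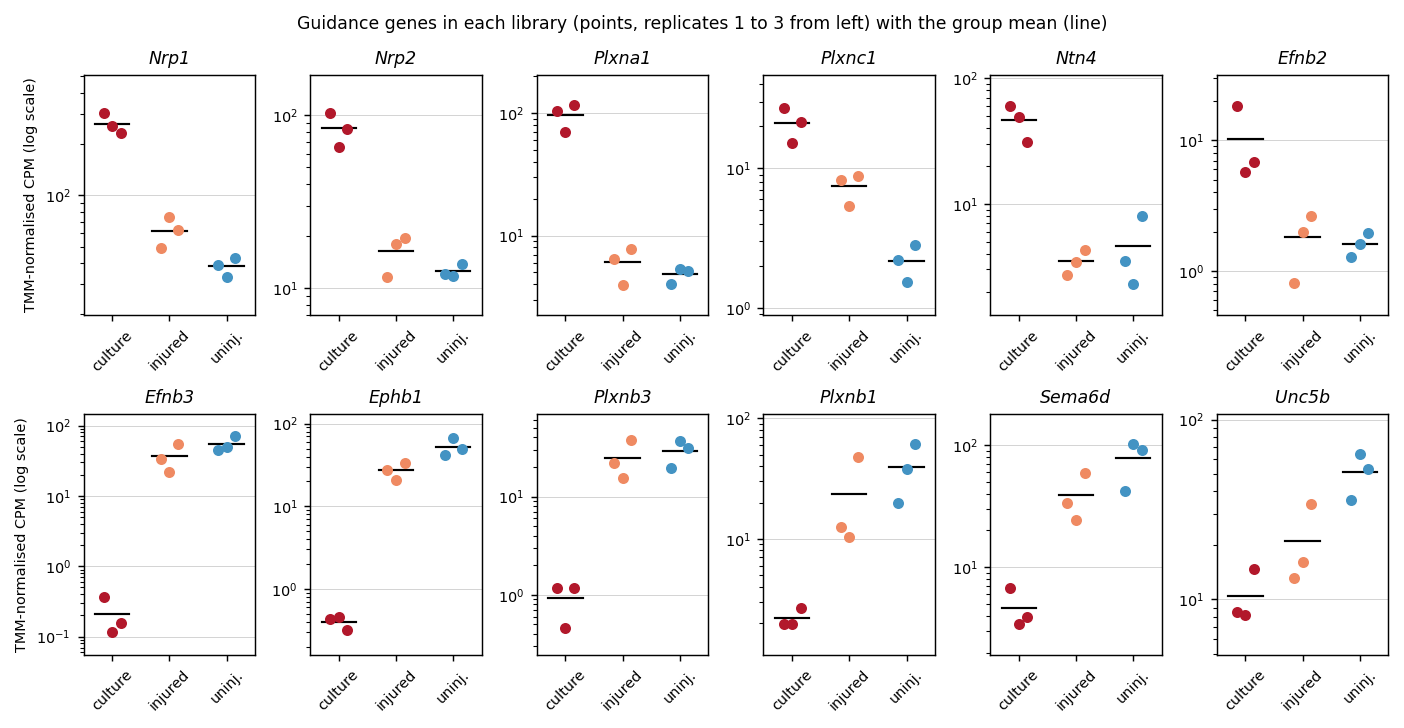
Levels of guidance genes in every library, in CPM on a log axis, with culture, injured and uninjured libraries from left to right and each point 1 library. Nrp1, Nrp2 and Plxna1 lie higher in all 3 cultures than in the 6 sorted libraries, and Efnb3 and Ephb1 lie lower.

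Between injured and uninjured cortex few guidance genes were called. The plexin Plxnc1, the receptor for Sema7a, and Sema5b, a membrane semaphorin, were called higher in injured cortex. The receptors Unc5b and Ephb1 and the ligand Efna1 were called lower. These were 2 of 59 genes called higher (3.39%), where 8.99% of all 18093 genes tested were called higher, and 3 called lower (5.08%), where 2.87% of all genes were. A call is an adjusted p under 0.05 by edgeR's quasi-likelihood test, adjusted over all 18093 genes by the Benjamini-Hochberg method. The other 54 were not called. Among them Sema4f had the highest log2 fold change of the 59 (2.69 ± 0.83, adjusted p = 0.0564), from 5, 2 and 5 counts in uninjured libraries. It was called with DESeq2's Wald test, low counts unfiltered, or without culture replicate 3 or injured replicate 2 (adjusted p = 0.00907 to 0.0493). Sema3d (1.81 ± 0.62, adjusted p = 0.0799) overlapped. It was called with DESeq2's Wald test, low counts unfiltered or without injured replicate 2 (0.00120 to 0.0396). An unadjusted p under 0.05 was found for 15 of the 59, a share similar to that of all genes tested (4737 of 18093). The median log2 fold change was -0.31, against 0.00 over all genes tested. Of all genes, 11.9% were called in either direction. Every injured library was above every uninjured one for 4 guidance genes, where this held for 16.1% of all genes, and below for 9, where it held for 12.5%.

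Plxnc1 was at 8.29, 5.33 and 8.80 CPM in injured libraries, against 2.21, 1.53 and 2.80 CPM in uninjured libraries. Every injured library was above every uninjured library, and the log2 fold change was 1.79 ± 0.34 (SE; adjusted p = 0.00484), 3.45-fold. The call held without any single library, and with uninjured replicates 2 and 3 both left out the log2 fold change was 1.75 with an adjusted p of 0.114. Of the monocyte and macrophage markers 4 of 5 were called higher in injured cortex, and of the proliferation markers 4 of 4 (sums given above). Their part in the Plxnc1 values was not tested. Plxnd1, a plexin known from endothelial cells and a receptor for Sema3e, had 1.88, 1.25 and 3.64 CPM in injured libraries, against 0.276, 0.359 and 1.52 CPM in uninjured libraries. An uninjured library lay within the injured range, and Plxnd1 was not called (1.69 ± 0.64, adjusted p = 0.111). It was called without uninjured replicate 3, at a log2 fold change of 2.79 (adjusted p = 0.0226), and when low counts were not filtered (1.73, adjusted p = 0.00818), while with uninjured replicates 2 and 3 both left out the adjusted p was 0.127.

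Sema5b was at 3.01, 1.41 and 10.5 CPM in injured libraries, against 1.49, 0.719 and 0.731 CPM in uninjured libraries. The groups overlapped, and injured replicate 3 stood far above the other injured libraries. The log2 fold change was 2.35 ± 0.67 (adjusted p = 0.0418), and without injured replicate 3 it was 1.16 (adjusted p = 0.168). The call was also lost without injured replicate 1, uninjured replicate 2 or 3, or any 1 culture library, at adjusted p values of 0.0563 to 0.159. The 5 oligodendrocyte precursor markers summed to 448, 213 and 683 CPM in injured libraries, against 348, 481 and 201 CPM in uninjured libraries, mostly counts of Olig1, which was not called (log2 fold change 0.20). Within the list, Pdgfra and Cacng4 were highest in injured replicate 3 and next in injured replicate 1, as Sema5b was. Olig1, Olig2 and Cspg4 did not follow this order. Olig2 was highest in uninjured replicate 2 (86.2 CPM), and Cspg4 was next highest in uninjured replicate 3 (25.2 CPM). Olig2 and Cspg4 were not called (log2 fold changes -0.07 and 0.60). Pdgfra is also a gene of the fibroblast and meningeal list. Pdgfra was at 28.4, 5.70 and 100 CPM in injured libraries, against 16.7, 2.20 and 1.83 CPM in uninjured libraries, and Cacng4 at 11.8, 1.57 and 62.7 CPM in injured libraries, against 7.50, 0.225 and 0.305 CPM in uninjured libraries. Neither was called (log2 fold change 2.70, adjusted p = 0.0844, and 3.25, adjusted p = 0.112), and the part of precursor markers in the Sema5b values was not tested.

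Ephb1, a receptor for B-type ephrins, was at 27.8, 20.9 and 33.5 CPM in injured libraries, against 41.5, 67.1 and 49.9 CPM in uninjured libraries. Each injured library was below each uninjured one, by 1.93-fold in the fit (log2 fold change -0.95 ± 0.24, adjusted p = 0.0242). Without injured replicate 1 or 2, or uninjured replicate 2 or 3, the adjusted p was 0.0554 to 0.122. Unc5b, a netrin receptor also known from endothelial cells, was at 13.2, 16.2 and 34.0 CPM in injured libraries, against 35.5, 64.7 and 52.8 CPM in uninjured libraries. The ranges did not overlap but nearly met at injured replicate 3, and the log2 fold change was -1.27 ± 0.37 (adjusted p = 0.0446). Leaving out injured replicate 1 or 2, uninjured replicate 2 or 3 or culture replicate 1 or 2 gave an adjusted p of 0.0607 to 0.162 for Unc5b. With uninjured replicates 2 and 3 both left out, the log2 fold change was -0.61 for Ephb1 and -0.76 for Unc5b. In that fit it was 1.73 for Sema5b and -0.93 for Efna1.

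Efna1, an A-type ephrin held to the membrane by a lipid anchor, was at 22.6, 24.2 and 25.5 CPM in injured libraries, against 45.4, 44.1 and 35.1 CPM in uninjured libraries. The injured libraries were tightly grouped below all uninjured ones, and the log2 fold change was -0.79 ± 0.19 (adjusted p = 0.0175). The adjusted p was 0.0548 to 0.0867 without injured replicate 1 or 2 or uninjured replicate 1 or 2. 4 of the 7 ephrins tested lay lower in every injured library than in any uninjured library. The share of all genes tested that did so was 12.5%, and Efna1 was the ephrin that was called. Summed over the family, ephrins reached 26.5, 24.4 and 36.8 CPM per kb in injured libraries, against 47.6, 47.4 and 48.1 CPM per kb in uninjured libraries. The summed astrocyte and oligodendrocyte lists (given above) were lower in the injured libraries as well. The mural list summed to 471 to 507 CPM there, against 788 to 1456 CPM in uninjured libraries. No astrocyte or oligodendrocyte gene was called, and S100b (log2 fold change 0.55) and Aldh1l1 (0.08) were not lower. Of the mural genes Pdgfrb, Rgs5, Kcnj8 and Vtn were called lower, and Abcc9 and Acta2 were not called. The part of these lists in the ephrin differences was not tested.

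Injured replicate 3 decided how many guidance genes were called lower. Without it 18 were called lower, against 3 with it, while the share of all genes called lower was 8.96% without it. The genes gained were Efna2, Efna5 and Efnb3 among the ephrins and Epha4, Epha7, Ephb4 and Epha10, which passed the filter on low counts only then, among their receptors. They were joined by Plxna2, Plxna4, Plxnb1, Robo1, Sema4b, Sema4g, Sema6a and Sema6d, and Sema4a was gained as higher. Without injured replicate 1, injured replicate 2 or uninjured replicate 2, in contrast, 0 were called lower, and without uninjured replicate 3, 1 was. The share of all genes called lower fell in the same fits, to 0.625%, 1.29%, 0.823% and 1.38% in that order. The count called higher was 1 without culture replicate 1 or 2, injured replicate 1 or uninjured replicate 2, and 4 without injured replicate 2. In the same order, 7.65%, 7.18%, 4.49%, 5.14% and 7.24% of all genes were called higher. With uninjured replicates 2 and 3 both left out, 1 uninjured library remained, so the count of calls in that fit is not read. The Sema5b call was also lost with upper-quartile factors, limma-voom, the 2 groups compared alone or a replicate block, at adjusted p values of 0.0543 to 0.0971. Compared in the 2 groups alone, Ephb1 (adjusted p = 0.0537) and Unc5b (0.0689) were not called, and without a filter on low counts Efna1 was not (0.0566).

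**Figure D2:**
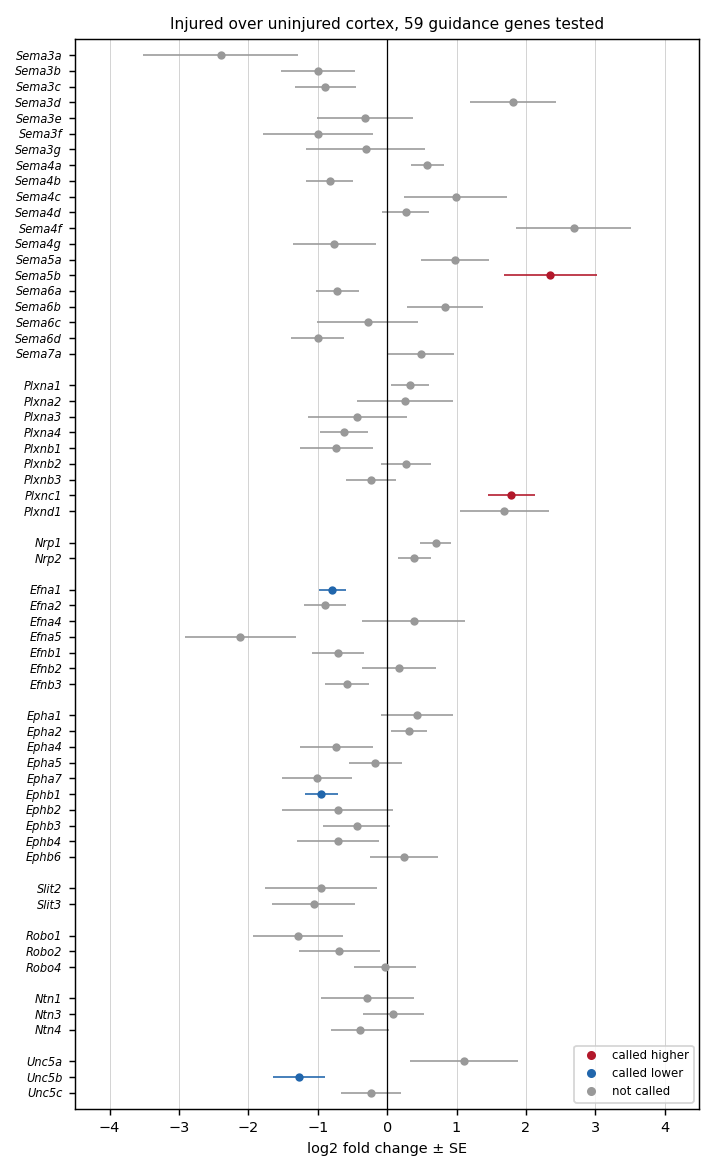
Log2 fold change of injured over uninjured cortex for the 59 guidance genes tested, by family, with bars of 1 SE from edgeR's quasi-likelihood fit. Plxnc1 and Sema5b, in red, were called higher and Efna1, Ephb1 and Unc5b, in blue, lower, and the grey points were not called.

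In culture the guidance genes were divided: neuropilins, Plxna1, Plxnc1, Plxnd1, Ntn4, Efnb2, Sema3a and Sema3f were higher than in both sorted groups, and most Eph receptors tested, 2 of 3 B plexins and 2 of 4 Sema6 genes were lower. Against injured cortex 13 genes were called higher in cultures (22.0%, where 20.0% of all genes tested were called higher) and 22 lower (37.3%, where 30.1% of all genes were). Against uninjured cortex 10 were called higher (16.9%, where 27.5% of all genes were) and 24 lower (40.7%, where 33.1% were). The median log2 fold change of the 59 genes was -0.62 against injured cortex, where that of all genes was -0.19, and -0.71 against uninjured cortex, where that of all genes was -0.17. Over all genes, 50.1% were called in either direction against injured cortex and 60.5% against uninjured cortex. Every culture was above every injured library for 14 of the 59 genes, where this held for 25.8% of all genes, and below for 22, where it held for 33.8%. Against uninjured cortex it was above for 16, where this held for 32.1% of all genes, and below for 26, where it held for 37.1%. Both comparisons use the same culture libraries. Without culture replicate 2 or injured replicate 3, 13 and 14 genes were called lower than in injured cortex, where 22.9% and 25.9% of all genes were.

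Both neuropilins, the receptors that bind Sema3 ligands and vascular growth factors, were higher in cultures. Nrp1 was at 306, 254 and 232 CPM in cultures, at 49.4, 74.3 and 62.8 CPM in injured libraries and at 39.2, 33.1 and 42.6 CPM in uninjured libraries. The cultures were far above all 6 sorted libraries, by 2.09 ± 0.22 on the log2 scale against injured cortex (4.24-fold, adjusted p = 1.48e-05) and by 2.78 ± 0.23 against uninjured cortex (6.89-fold, adjusted p = 1.11e-06). Between the sorted groups each injured library was above each uninjured one, but Nrp1 was not called (0.70 ± 0.22, adjusted p = 0.0572). Limma-voom narrowly called Nrp1 higher in injured cortex (0.69, adjusted p = 0.0497). DESeq2's Wald test called it too (0.62, 0.0364).

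Nrp2 followed the same order at a lower level, with 103, 66.1 and 83.8 CPM in cultures, 11.7, 18.0 and 19.5 CPM in injured libraries and 12.1, 11.8 and 13.8 CPM in uninjured libraries. Cultures stood apart from both sorted groups, whose ranges overlapped. Its log2 fold change was 2.36 ± 0.25 against injured cortex (adjusted p = 1.18e-05) and 2.75 ± 0.25 against uninjured cortex (adjusted p = 2.47e-06). Nrp1 made up 79.2% of the neuropilin level per kb in cultures, 82.2% in injured cortex and 78.6% in uninjured cortex, so the ratio of the pair was nearly the same in the 3 groups. Acta2, the 4 proliferation markers and 5 of 6 fibroblast and meningeal markers were called higher in cultures in both comparisons, whereas 4 of 6 mural markers were called lower. The part of these markers in the neuropilin values was not tested.

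Among the plexins, the signalling receptors for semaphorins, Plxna1 and Plxnb3 moved most and in opposite directions. Plxna1, which pairs with neuropilins, was at 104, 69.5 and 116 CPM in cultures, at 6.41, 3.97 and 7.75 CPM in injured libraries and at 4.03, 5.30 and 5.12 CPM in uninjured libraries. No culture overlapped a sorted library, and the log2 fold change was 3.99 ± 0.30 against injured cortex (adjusted p = 8.57e-07) and 4.32 ± 0.31 against uninjured cortex (adjusted p = 3.42e-07). Of its exon bases, 970 overlap those of Gm26811 on the opposite strand, and counts of Plxna1 may hold reads of that gene since no strand setting is given. Plxnc1 was at 27.2, 15.1 and 21.6 CPM in cultures, above every injured library (given above), with a log2 fold change of 1.51 ± 0.32 against injured cortex (adjusted p = 0.00224) and 3.30 ± 0.35 against uninjured cortex (adjusted p = 8.58e-06). Plxnc1 thus stood highest in cultures, next in injured cortex and lowest in uninjured cortex, with no overlap between any pair of groups. The 4 proliferation markers moved in the same order. Of the monocyte and macrophage markers Ms4a7 alone did. Ms4a7 was at 348 to 521 CPM in cultures, 38.6 to 181 CPM in injured cortex and 9.43 to 19.6 CPM in uninjured cortex. Ccr2, Ly6c2 and F10 were called lower in cultures than in injured cortex (log2 fold changes -6.36, -7.64 and -1.43). Mrc1 was not called after injury (-0.68). The part of these markers in the Plxnc1 values was not tested.

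Plxnd1 was at 9.87, 5.22 and 5.00 CPM in cultures, also above all sorted libraries. It was 3.24 ± 0.65 higher on the log2 scale than in uninjured cortex (adjusted p = 0.00112), 4.35 without uninjured replicate 3 and 4.57 with uninjured replicates 2 and 3 both left out. Against injured cortex its log2 fold change was 1.55 ± 0.59 (adjusted p = 0.0437), a call lost without any 1 culture library or injured replicate 1 or 2, at adjusted p values of 0.0567 to 0.175, and with upper-quartile factors (0.0603) or a minimum of 1 CPM in 3 libraries (0.0511).

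The plexins of the B class split. Plxnb3, known from oligodendrocytes, was at 1.16, 0.459 and 1.17 CPM in cultures, at 21.7, 15.6 and 37.2 CPM in injured libraries and at 19.5, 36.9 and 31.3 CPM in uninjured libraries. It fell well below both sorted groups, by 4.75 ± 0.46 on the log2 scale against injured cortex (adjusted p = 6.29e-06) and by 4.99 ± 0.46 against uninjured cortex (adjusted p = 2.65e-06). Plxnb1, a receptor for Sema4d, was at 1.96, 1.95 and 2.66 CPM in cultures, at 12.5, 10.4 and 48.1 CPM in injured libraries and at 19.7, 37.7 and 61.1 CPM in uninjured libraries. It too was lower in cultures, with a log2 fold change of -3.44 ± 0.61 against injured cortex (adjusted p = 6.41e-04), -2.39 without injured replicate 3, and -4.18 ± 0.62 against uninjured cortex (adjusted p = 1.27e-04), or -3.18 with uninjured replicates 2 and 3 both left out. Plxnb2, the plexin with the highest level per kb over all libraries, was at 95.5, 56.4 and 83.4 CPM in cultures, at 45.5, 56.8 and 108 CPM in injured libraries and at 33.8, 61.6 and 78.6 CPM in uninjured libraries. Its groups overlapped, and it was called in neither culture comparison (adjusted p = 0.730 and 0.311). Plxna3 was called lower against uninjured cortex (-2.02 ± 0.78, adjusted p = 0.0408), a call lost without culture replicate 2 or 3 or uninjured replicate 3 (adjusted p = 0.107 to 0.159), with limma-voom (0.0701) or with uninjured replicates 2 and 3 both left out (0.297).

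The promoters of a pair of receptor genes that rose together in culture and of a pair that fell are printed for comparison, from RefSeq on GRCm38.p6, each from 250 bases before to 50 bases after the annotated start. The oligodendrocyte list, summed to at most 731 CPM in cultures and at least 10737 CPM in the sorted libraries, moved with the pair that fell. So did the sums of astrocyte genes (at most 163, at least 2130 CPM), microglia genes (2359, 4765) and oligodendrocyte precursor genes (61.2, 201). Of the precursor genes Cspg4 went the other way against uninjured cortex (log2 fold change 1.43, called higher). The part of these lists in the values of the pair was not tested. Capitals mark matches, on either strand, to an AP-1 site (TGANTCA), a TEAD site (GGAATG), a GC box (GGGCGG) or a Sox core (ACAAAG).
Nrp1, chr8:128358823-128359122, plus strand: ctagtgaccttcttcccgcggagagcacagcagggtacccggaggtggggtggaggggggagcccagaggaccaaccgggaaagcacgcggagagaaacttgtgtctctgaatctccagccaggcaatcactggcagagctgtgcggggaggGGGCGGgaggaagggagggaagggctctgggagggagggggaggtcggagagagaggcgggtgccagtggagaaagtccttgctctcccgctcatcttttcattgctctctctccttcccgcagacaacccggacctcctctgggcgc
Nrp2, chr1:62703067-62703366, plus strand: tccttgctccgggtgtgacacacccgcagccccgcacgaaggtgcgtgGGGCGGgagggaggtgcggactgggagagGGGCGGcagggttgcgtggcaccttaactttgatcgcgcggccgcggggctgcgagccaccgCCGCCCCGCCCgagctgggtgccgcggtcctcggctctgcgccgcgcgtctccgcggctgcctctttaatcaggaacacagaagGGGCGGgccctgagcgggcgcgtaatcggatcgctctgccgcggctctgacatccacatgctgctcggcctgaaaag
Ephb1, chr9:102354644-102354943, minus strand: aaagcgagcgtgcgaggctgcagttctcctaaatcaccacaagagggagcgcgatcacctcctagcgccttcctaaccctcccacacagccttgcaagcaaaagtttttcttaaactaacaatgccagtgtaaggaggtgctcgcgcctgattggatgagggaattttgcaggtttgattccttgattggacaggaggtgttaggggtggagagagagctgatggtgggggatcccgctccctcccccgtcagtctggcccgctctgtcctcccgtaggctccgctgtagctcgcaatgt
Plxnb3, chrX:73756853-73757152, plus strand: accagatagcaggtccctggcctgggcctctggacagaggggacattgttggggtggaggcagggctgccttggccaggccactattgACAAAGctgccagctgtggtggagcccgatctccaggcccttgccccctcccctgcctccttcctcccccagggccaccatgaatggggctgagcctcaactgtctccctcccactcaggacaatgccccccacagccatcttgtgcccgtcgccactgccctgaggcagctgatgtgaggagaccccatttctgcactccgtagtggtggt
The Nrp1 window held 1 GC box, and the Nrp2 window held 5, of which a pair on the opposite strand share a base. The Plxnb3 window held 1 Sox core, and none of the 4 motifs was found in the Ephb1 window. Of 32851 mouse promoter windows of this length, 35.7% held a GC box, 18.7% a Sox core, 14.7% a TEAD site and 7.8% an AP-1 site. Of the 75 windows that matched 59 of the 68 guidance genes, 53 held a GC box (70.7%), 10 a Sox core, 9 a TEAD site and 3 an AP-1 site. These are matches of letters and not measured binding. The G and C content was 64.0% for Nrp1, 70.7% for Nrp2, 55.7% for Ephb1 and 63.7% for Plxnb3, against a median of 52.7% over all windows.

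Of 20 semaphorins, the ligands of these receptors, 3 were called higher and 8 lower in cultures against injured cortex, where 20.0% and 30.1% of all genes tested were. Against uninjured cortex 2 were called higher and 7 lower, where 27.5% and 33.1% of all genes were. The secreted repellent Sema3a was at 5.89, 3.85 and 1.64 CPM in cultures, at 0, 0.0523 and 0.272 CPM in injured libraries and at 0, 0.898 and 1.10 CPM in uninjured libraries. All cultures were above all sorted libraries, which held at most 20 counts each. The log2 fold change was 4.91 ± 1.11 against injured cortex (adjusted p = 0.00319), 6.91 without injured replicate 3, and 2.50 ± 0.94 against uninjured cortex (adjusted p = 0.0362). Without injured replicate 3 the injured libraries held 0 and 1 counts of Sema3a, so 6.91 is no bound on the fold change. The call against uninjured cortex was lost without culture replicate 1 or 2 or uninjured replicate 1 or 2, at adjusted p values of 0.0509 to 0.139, and with upper-quartile factors (0.0546). With uninjured replicates 2 and 3 both left out, the uninjured library that remained held 0 counts of Sema3a, and the fitted value of 9.20 (adjusted p = 0.00872) is no bound on the fold change.

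Sema3f, which binds Nrp2, was at 3.37, 1.95 and 2.50 CPM in cultures, at 0.236, 0.157 and 0.0680 CPM in injured libraries and at 0.0551, 0.584 and 0.244 CPM in uninjured libraries. Again no culture overlapped a sorted library. The log2 fold change was 4.08 ± 0.75 against injured cortex (adjusted p = 8.39e-04) and 3.08 ± 0.70 against uninjured cortex (adjusted p = 0.00250). The latter was 4.08 without uninjured replicate 2 and 5.40 with uninjured replicates 2 and 3 both left out. The uninjured library left in that last fit held 1 count of Sema3f, so 5.40 is no bound on the fold change. Sema3d went the other way, with 0.736, 0.459 and 0.313 CPM in cultures, 6.55, 1.41 and 13.5 CPM in injured libraries and 2.04, 2.29 and 1.77 CPM in uninjured libraries. The cultures were the lowest 3 libraries. Its log2 fold change was -3.80 ± 0.71 against injured cortex (adjusted p = 9.35e-04), -2.95 without injured replicate 3, and -1.99 ± 0.70 against uninjured cortex (adjusted p = 0.0272). Without culture replicate 2 or 3 or uninjured replicate 2 the adjusted p of Sema3d against uninjured cortex was 0.0627 to 0.0873, and it was 0.130 with limma-voom and 0.121 with uninjured replicates 2 and 3 both left out.

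The transmembrane Sema6 genes, whose proteins bind A plexins, were lower in cultures in 2 of 4 cases. Sema6d was at 6.74, 3.44 and 3.91 CPM in cultures, at 33.4, 24.3 and 58.9 CPM in injured libraries and at 41.9, 101 and 91.4 CPM in uninjured libraries. No culture overlapped a sorted library, with a log2 fold change of -3.05 ± 0.42 against injured cortex (adjusted p = 1.15e-04) and -4.05 ± 0.44 against uninjured cortex (adjusted p = 1.02e-05), or -3.16 with uninjured replicates 2 and 3 both left out. Sema6a was at 1.47, 0.804 and 1.33 CPM in cultures, at 15.5, 10.6 and 21.8 CPM in injured libraries and at 19.0, 30.0 and 30.1 CPM in uninjured libraries. It lay below both sorted groups, with a log2 fold change of -3.74 ± 0.37 against injured cortex (adjusted p = 7.89e-06) and -4.46 ± 0.38 against uninjured cortex (adjusted p = 1.38e-06). Sema6b and Sema6c, at means of 2.10 and 0.815 CPM in cultures, were called in neither comparison.

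Sema5b, called higher in injured cortex with overlapping groups and a call often lost (given above), was nearly undetected in cultures. It was at 0.0613, 0.0574 and 0.156 CPM there, which stand for 4 counts in all. It was below every sorted library, with a log2 fold change of -5.74 ± 0.90 against injured cortex (adjusted p = 2.87e-04), -4.56 without injured replicate 3, and -3.39 ± 0.94 against uninjured cortex (adjusted p = 0.00798; 0.0598 with limma-voom), or -4.01 with uninjured replicates 2 and 3 both left out. Sema4d, an immune and oligodendrocyte semaphorin and the semaphorin with the highest level per kb over all libraries, was at 116, 46.7 and 49.9 CPM in cultures, at 79.1, 66.1 and 102 CPM in injured libraries and at 50.6, 87.9 and 66.7 CPM in uninjured libraries. Its 3 groups overlapped, culture replicate 1 held the highest level of all, and Sema4d was not called against injured or uninjured cortex (adjusted p = 0.615 and 0.904). Of the rest, Sema4b and Sema4g were called lower in cultures in both comparisons, Sema4a and Sema5a against injured cortex and Sema3c against uninjured cortex, and Sema3e was called higher against injured cortex. The calls of Sema4a, Sema4b and Sema5a against injured cortex were each lost without culture replicate 2 and without at least 1 injured library (adjusted p = 0.0541 to 0.0898). Sema3e was at 4.05, 0.861 and 1.17 CPM in cultures, against 0.895, 0.314 and 0.544 CPM in injured libraries, so the groups overlapped. Its log2 fold change was 1.78 ± 0.68 (adjusted p = 0.0445), and it was 0.79 without culture replicate 1 (adjusted p = 0.363). The call was also lost without injured replicate 2 or 3 or uninjured replicate 1 or 2, with limma-voom, upper-quartile factors, the 2 groups compared alone or a replicate block (adjusted p = 0.0503 to 0.114).

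The ephrins that sit in the membrane changed in opposite directions. Efnb3, known as a myelin-associated inhibitor of axon growth, was at 0.368, 0.115 and 0.156 CPM in cultures, at 34.0, 22.2 and 54.6 CPM in injured libraries and at 45.4, 49.3 and 70.9 CPM in uninjured libraries. It was close to undetected in cultures, with the most negative log2 fold change of the 59 genes in both comparisons, -7.38 ± 0.49 against injured cortex (167-fold lower, adjusted p = 3.51e-07) and -7.96 ± 0.50 against uninjured cortex (250-fold lower, adjusted p = 1.30e-07). Without culture replicate 1 these were -8.05 and -8.62. Mag and Omg, genes of other myelin inhibitors, were lower in cultures as well (given below), and the part of the oligodendrocyte markers in the Efnb3 values was not tested.

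Efnb2, known from arterial endothelium and mural cells, was at 18.2, 5.68 and 6.88 CPM in cultures, at 0.801, 1.99 and 2.62 CPM in injured libraries and at 1.27, 1.62 and 1.95 CPM in uninjured libraries. Every culture was above the sorted libraries, and culture replicate 1 was far above the other cultures. The log2 fold change was 2.50 ± 0.53 against injured cortex (adjusted p = 0.00208) and 2.67 ± 0.54 against uninjured cortex (adjusted p = 0.00109), and without culture replicate 1 it was 1.80 and 1.98, still called. The third B ephrin, Efnb1, had a mean of 4.26 ± 2.04 CPM in cultures, 4.19 ± 1.35 CPM in injured cortex and 6.86 ± 0.249 CPM in uninjured cortex (SD, n = 3 each) and was not called.

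Among the A ephrins, Efna1 was at 19.8, 20.8 and 18.3 CPM in cultures, below every sorted library. The distance to the injured libraries was small (log2 fold change -0.29 ± 0.19, adjusted p = 0.207) and that to the uninjured libraries larger (-1.08 ± 0.19, adjusted p = 4.27e-04). Efna5 was at 0.981, 1.15 and 1.95 CPM in cultures, at 0, 0.105 and 0.238 CPM in injured libraries and at 0.441, 0.494 and 0.731 CPM in uninjured libraries. Its injured libraries were the lowest, with 9 counts in all. Efna5 was called higher in cultures against injured cortex (3.40 ± 0.79, adjusted p = 0.00375) but not against uninjured cortex (1.28 ± 0.69, adjusted p = 0.127). Against injured cortex it was 4.58 without injured replicate 3, where the injured libraries held 0 and 2 counts. Efna2 was called lower in cultures in both comparisons, with a mean of 2.53 ± 0.624 CPM in cultures, 5.87 ± 1.16 CPM in injured cortex and 11.0 ± 2.13 CPM in uninjured cortex. Efna4 was called higher against uninjured cortex (1.89 ± 0.72, adjusted p = 0.0388), with at most 20 counts in a library. That call was lost without any 1 culture or uninjured library or injured replicate 1, with low counts unfiltered or with upper-quartile factors (adjusted p = 0.0529 to 0.137), and at 0.351 with uninjured replicates 2 and 3 both left out.

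Of 10 Eph receptors tested, 6 were called lower in cultures in each comparison (60.0%, where 30.1% of all genes tested were against injured cortex and 33.1% against uninjured cortex): Epha1, Epha4, Epha5, Ephb1, Ephb2 and Ephb3. Epha7 was called higher against injured cortex, and against uninjured cortex edgeR called 0 higher; the 6 called lower were also those with an unadjusted p under 0.05. Without injured replicate 3 the log2 fold changes of Epha4 and Ephb3 against injured cortex were -0.85 and -1.02 (adjusted p values of 0.119 and 0.0627), against -1.82 and -1.79 with it. Both calls were also lost without culture replicate 2 (0.0673 and 0.0511), that of Ephb3 without culture replicate 3 (0.0530) and that of Epha4 with limma-voom (0.0713). Against uninjured cortex the Epha1 call was lost without culture replicate 2 (0.0571), and the Epha1 and Epha4 calls with uninjured replicates 2 and 3 both left out (0.0576 and 0.0532). Epha7, with a log2 fold change of 1.38 ± 0.51 against injured cortex (adjusted p = 0.0380), was not called without any 1 culture library, injured replicate 1 or 2 or uninjured replicate 2, or with upper-quartile factors, no filter on low counts or the 2 groups compared alone (adjusted p = 0.0534 to 0.108). Ephb1 was at 0.429, 0.459 and 0.313 CPM in cultures, far from the lowest sorted library at 20.9 CPM. Its log2 fold change was -6.05 ± 0.34 against injured cortex (66.5-fold lower, adjusted p = 1.17e-07) and -7.00 ± 0.35 against uninjured cortex (128-fold lower, adjusted p = 3.02e-08).

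Ephb2 was low throughout, at 0.0613, 0.115 and 0.0781 CPM in cultures, at 0.471, 0.105 and 2.00 CPM in injured libraries and at 0.551, 1.84 and 1.95 CPM in uninjured libraries. Cultures and injured libraries overlapped. The log2 fold change of -3.27 ± 1.07 (adjusted p = 0.0235) against injured cortex was -1.68 without injured replicate 3 (adjusted p = 0.195), and it was not called without any 1 culture library either (adjusted p = 0.0610 to 0.0841) or with limma-voom (0.133). Against uninjured cortex it was -3.98 ± 1.07 (adjusted p = 0.00671), and -2.61 with uninjured replicates 2 and 3 both left out (adjusted p = 0.174). Epha2, an epithelial and glial Eph receptor, had a mean of 5.64 ± 0.663 CPM in cultures, 7.76 ± 0.951 CPM in injured cortex and 6.26 ± 0.601 CPM in uninjured cortex and was called in neither comparison. Counts of Epha1 are uncertain, since 236 of its exon bases overlap those of Zyx on the opposite strand and no strand setting is given.

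Ntn4, a netrin of basement membranes, was at 60.4, 48.6 and 30.9 CPM in cultures, at 2.69, 3.45 and 4.32 CPM in injured libraries and at 3.53, 2.29 and 8.04 CPM in uninjured libraries. The cultures lay well above all sorted libraries, with a log2 fold change of 3.74 ± 0.44 against injured cortex (13.3-fold, adjusted p = 3.31e-05) and 3.35 ± 0.44 against uninjured cortex (10.2-fold, adjusted p = 4.41e-05; 3.99 without uninjured replicate 3). Ntn3 was called lower in both comparisons, and without culture replicate 1 or 2 in neither (adjusted p = 0.0612 to 0.0972). Its call was also lost without injured replicate 3 against injured cortex (0.0628), and against uninjured cortex without uninjured replicate 2 (0.0728) or with uninjured replicates 2 and 3 both left out (0.233). Ntn1, the classical netrin, was called in neither comparison, with a mean of 2.21 ± 1.06 CPM in cultures, 4.98 ± 4.74 CPM in injured cortex and 6.14 ± 3.40 CPM in uninjured cortex.

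Of the netrin receptors, Unc5b was at 8.52, 8.21 and 14.8 CPM in cultures, below all uninjured libraries (log2 fold change -2.28 ± 0.39, adjusted p = 3.29e-04). The cultures overlapped the injured libraries, where the log2 fold change was -1.01 ± 0.38 (adjusted p = 0.0402). This was -0.48 without injured replicate 3 (adjusted p = 0.219), and the call was also lost without culture replicate 1 or 2 or uninjured replicate 3 (adjusted p = 0.0523 to 0.140), with limma-voom (0.0649) or with the 2 groups compared alone (0.0544). Unc5c was called lower in both comparisons, and Unc5a in neither. Against injured cortex the log2 fold change of Unc5c was -1.19 ± 0.44 (adjusted p = 0.0397). It was -0.56 without injured replicate 3 (adjusted p = 0.233). That call was also lost without any 1 culture library or uninjured replicate 3, with limma-voom or with a replicate block (adjusted p = 0.0523 to 0.115). Against uninjured cortex it was -1.42 ± 0.44 (adjusted p = 0.0151), not called without culture replicate 2 (0.0546) or uninjured replicate 2 (0.0720), and -0.60 with uninjured replicates 2 and 3 both left out (0.438).

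The Slits and Robos were low in these samples. Slit3 was at 1.66, 0.861 and 0.781 CPM in cultures, at 0.188, 0.261 and 0.238 CPM in injured libraries and at 0.386, 0.404 and 0.670 CPM in uninjured libraries. Cultures were above both sorted groups, and the log2 fold change was 2.24 ± 0.59 against injured cortex (adjusted p = 0.00815), 1.82 without culture replicate 1 (adjusted p = 0.0589), and 1.18 ± 0.56 against uninjured cortex (adjusted p = 0.0869). Robo2, a Slit receptor of neurons, was at 0.245, 0 and 0.313 CPM in cultures, at 2.07, 1.15 and 1.97 CPM in injured libraries and at 3.14, 1.71 and 3.59 CPM in uninjured libraries. It was lower in every culture, with a log2 fold change of -3.25 ± 0.74 against injured cortex (adjusted p = 0.00328) and -3.94 ± 0.74 against uninjured cortex (adjusted p = 6.85e-04), or -2.61 and -3.30 without culture replicate 2, where it had 0 counts. Robo4, the endothelial Robo and the one with the highest level per kb, was at 2.70, 1.32 and 2.19 CPM in cultures, at 2.36, 3.71 and 6.52 CPM in injured libraries and at 5.46, 2.52 and 4.99 CPM in uninjured libraries. Its groups overlapped and it was not called (adjusted p = 0.0860 and 0.0686). Under some alternatives it was called lower: against injured cortex without injured replicate 1 (0.0420), and against uninjured cortex with upper-quartile factors, DESeq2's Wald test or the 2 groups compared alone, or without injured replicate 1 or 3 or uninjured replicate 2 (0.0290 to 0.0473). Robo1 was called lower against uninjured cortex (-3.02 ± 0.73, adjusted p = 0.00378), and was not with uninjured replicates 2 and 3 both left out (-1.94, adjusted p = 0.138).

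**Figure D3:**
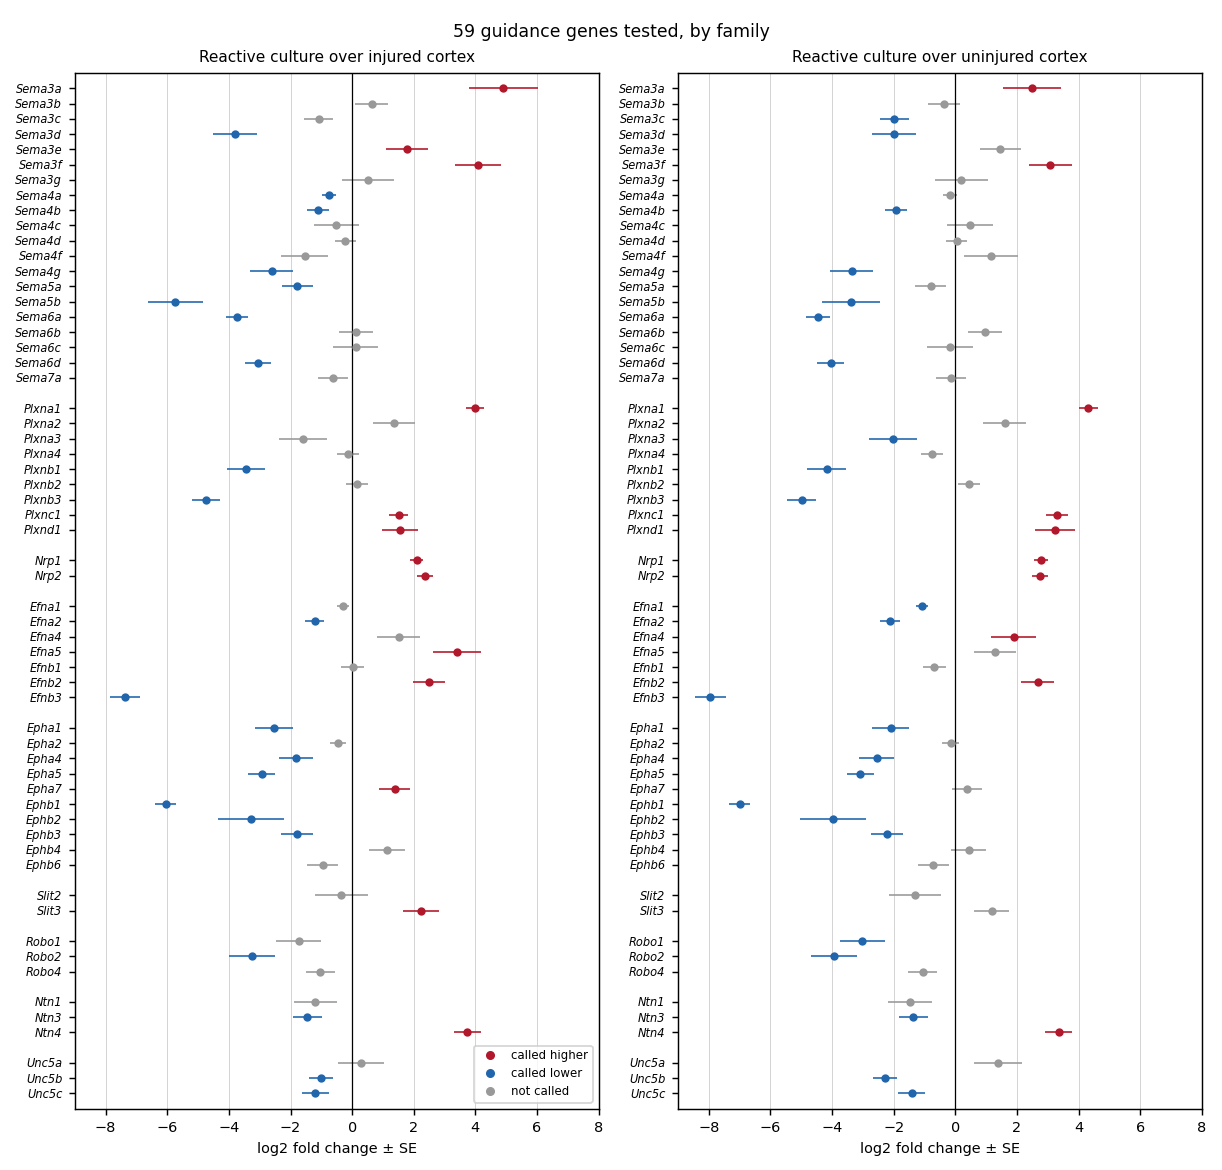
Log2 fold change of culture over injured and over uninjured cortex for the 59 guidance genes tested, by family, with bars of 1 SE from edgeR's quasi-likelihood fit. Nrp1, Nrp2, Plxna1 and Ntn4 lie to the right of 0 and Efnb3, Ephb1 and Plxnb3 to the left in both comparisons, which share the culture libraries.

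The makeup of whole families differed between cultures and sorted cells. On the scale of CPM per kb, Plxna1 made up a mean of 41.4% of all plexin expression in cultures, 3.93% in injured cortex and 3.08% in uninjured cortex, while Plxnb3 made up 0.536%, 21.4% and 25.1% in the same order. Efnb3 held 0.406% of the ephrin level in cultures, 38.5% in injured cortex and 36.3% in uninjured cortex. Ephb1 held 1.80% of the Eph receptor level in cultures, 43.7% in injured cortex and 54.6% in uninjured cortex. In the cultures Epha2 (37.3%) and Ephb4 (24.5%) led that family. Their shares were 19.8% and 3.69% in injured cortex, and 9.92% and 4.62% in uninjured cortex. Ntn4 held 95.2% of the netrin level in cultures, 44.8% in injured cortex and 43.9% in uninjured cortex. These shares describe the libraries and were not tested.

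Family sums moved less evenly than single genes. The neuropilins summed to 40.0, 31.5 and 30.8 CPM per kb in cultures, to 6.04, 9.12 and 8.07 in injured libraries and to 5.03, 4.38 and 5.52 CPM per kb in uninjured libraries, with cultures apart. The Eph receptors summed to 4.14, 2.60 and 3.18 CPM per kb in cultures, to 8.02, 6.83 and 12.7 in injured libraries and to 11.5, 15.4 and 14.3 CPM per kb in uninjured libraries, so that every culture was below every sorted library. The semaphorins, at 25.6, 12.5 and 14.0 CPM per kb in cultures, 27.4, 21.8 and 36.4 in injured libraries and 23.5, 32.4 and 32.4 CPM per kb in uninjured libraries, overlapped. All 68 genes together gave 95.9 to 138 CPM per kb in cultures, 80.3 to 135 in injured libraries and 108 to 139 CPM per kb in uninjured libraries, with overlap of all 3 groups.

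**Figure D4:**
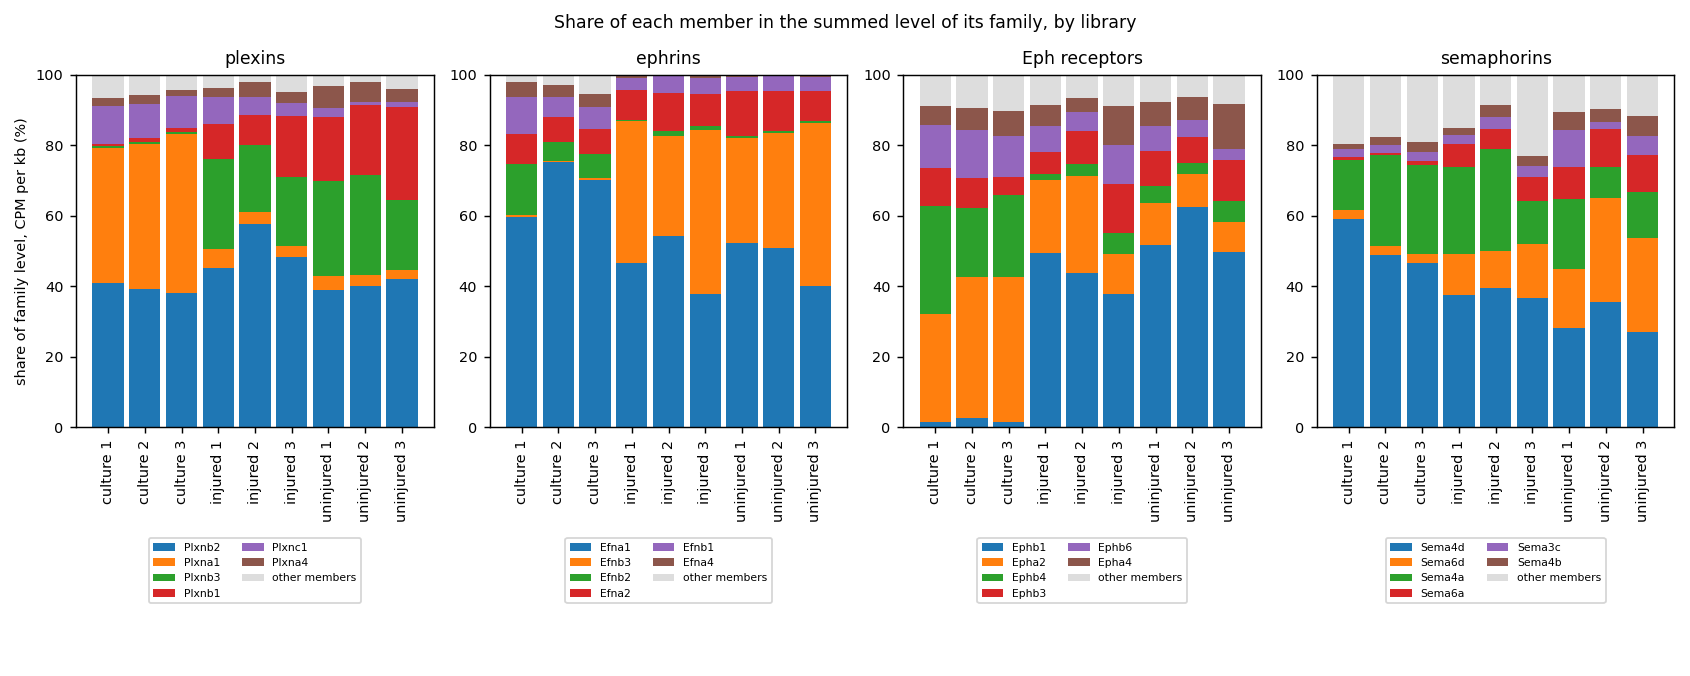
Share of each gene in the summed level of its family (percent of CPM per kb) in every library, with cultures left, injured cortex in the middle and uninjured cortex right. Plxna1, Efna1, Epha2 and Ephb4 take larger shares in cultures, and Plxnb3, Efnb3 and Ephb1 larger shares in the 6 sorted libraries.

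Other genes of these pathways were read from fixed lists of co-receptors and other ligands, of intracellular partners, and of myelin-associated growth inhibitors with their receptors. Of 18 co-receptors and ligands tested, 1 was called higher in injured than in uninjured cortex (5.56%, where 8.99% of all genes tested were). This was the cell adhesion molecule Chl1, at 18.5 ± 8.70 CPM in injured cortex and 2.12 ± 2.13 CPM in uninjured cortex (SD, n = 3 each; log2 fold change 3.13 ± 0.62, adjusted p = 0.00619). Of 39 intracellular partners, 3 were called higher (7.69%, where 8.99% of all genes were) and 1 lower (2.56%, where 2.87% were). Dpysl3, a semaphorin-pathway protein that binds tubulin, averaged 30.3 ± 21.5 CPM in injured cortex and 4.04 ± 3.65 CPM in uninjured cortex (log2 fold change 2.92 ± 0.65, adjusted p = 0.0123). The actin-severing Cfl1 (1.12 ± 0.31) and the kinase Fyn (0.81 ± 0.21) were the others called higher, and the actin-oxidising Mical2 (-1.70 ± 0.47) was called lower. Of 9 myelin-associated genes 0 were called in injured cortex by edgeR, where 8.99% of all genes were called higher and 2.87% lower. An unadjusted p under 0.05 was found for 2 of the 9, and for 4737 of all 18093 genes.

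In cultures against injured cortex, where 20.0% of all genes tested were called higher and 30.1% lower, 3 co-receptors and ligands were called higher (16.7%) and 10 lower (55.6%). Of the intracellular partners 10 were called higher (25.6%) and 15 lower (38.5%), and of the myelin-associated genes 1 higher (11.1%) and 5 lower (55.6%). Against uninjured cortex, where 27.5% of all genes were called higher and 33.1% lower, the co-receptors and ligands gave 3 of 18 higher and 9 of 18 lower. The intracellular partners gave 12 higher (30.8%) and 15 lower (38.5%), and the myelin-associated genes 1 higher (11.1%) and 5 lower (55.6%). Flrt2, a ligand of Unc5 receptors, averaged 33.4 ± 9.37 CPM in cultures, 2.00 ± 1.22 CPM in injured cortex and 2.87 ± 0.468 CPM in uninjured cortex. Met, a partner of B plexins, averaged 26.6 ± 9.36 CPM in cultures, 2.08 ± 0.577 CPM in injured cortex and 0.841 ± 0.593 CPM in uninjured cortex. Both were called higher in cultures, Flrt2 by 4.03 ± 0.41 on the log2 scale against injured cortex and Met by 4.97 ± 0.55 against uninjured cortex.

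The axonal and glial adhesion genes Nfasc and Cntn2 were called lower in cultures, with log2 fold changes of -5.62 ± 0.50 and -7.56 ± 0.75 against injured cortex. Nrcam was lower by a log2 fold change of -2.67 ± 0.31 against injured cortex, and Plxdc2 by -2.20 ± 0.24 against uninjured cortex. Of the intracellular partners, Ngef, an exchange factor downstream of Epha4, had a log2 fold change of -4.59 ± 0.48 against injured cortex, and Chn2 one of -3.37 ± 0.30. The adaptor Nck2 was higher (1.97 ± 0.27 against injured cortex), as was Mical1 (2.24 ± 0.24 against uninjured cortex).

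The myelin inhibitor Mag averaged 7.72 ± 0.192 CPM in cultures, 625 ± 65.4 CPM in injured cortex and 864 ± 230 CPM in uninjured cortex. Omg averaged 1.50 ± 0.339 CPM in cultures, 215 ± 54.2 CPM in injured cortex and 409 ± 177 CPM in uninjured cortex. Both were lower in cultures, with log2 fold changes of -6.34 ± 0.31 and -7.15 ± 0.43 against injured cortex, beside -5.74 ± 0.30 for the receptor gene Tnfrsf19 and -1.33 ± 0.24 for Rtn4rl1. Mag is also a gene of the oligodendrocyte marker list.

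Another 9 guidance genes had too few counts to be tested, with 1 to 76 counts each over the 9 libraries: Efna3, Epha3, Epha6, Epha8, Epha10, Ntn5, Robo3, Slit1 and Unc5d. Efna3 had 6, 7 and 10 counts in cultures, 0, 3 and 4 in injured libraries and 1, 0 and 2 in uninjured libraries. Epha3 had 27 and 25 of its 76 counts, and Epha10 10 and 16 of its 35, in uninjured replicates 2 and 3, the libraries with the most olfactory receptor counts. Unc5d had 20 and 5 of its 38 counts there. The part of whatever raised the olfactory receptor counts in these values was not tested.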

How the data were processed

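The deposited values are raw counts per gene. Alignment used HISAT2 to GRCm39, per the submitters' processing notes. Which tool counted the reads, with which strand setting and annotation, is not given in the sources used here. Tests used edgeR 4.0.16 (R 4.3.3). Genes passing filterByExpr, 18093 of 56748, were scaled by the trimmed mean of M values and fitted with a quasi-likelihood model of 3 group means (6 residual degrees of freedom). P-values were adjusted by Benjamini-Hochberg over all genes tested and called under 0.05. Groups follow the sample labels. The SE is the log2 fold change divided by the square root of its F statistic.

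Exon lengths and overlaps came from GENCODE M21 (GRCm38), and serve for levels per kb. Guidance genes, companion lists and markers were chosen with earlier results of these data known. Values in every library are given for the genes called after injury, the 8 highest and 8 lowest called log2 fold changes in each culture comparison (mean of at least 1 CPM in a group), and the member of each family with the highest level per kb. Up to 4 genes of each companion list with the smallest adjusted p are named per comparison. Some results under this naming rule are left out here. Epha2, Ephb4, Efnb1, Efna2, Ntn1, Sema6b and Sema6c were added after their values were seen. So were the values of Sema3e, Epha4, Epha7, Ephb3, Unc5c, Efna4, Plxna3, Ntn3 and Robo1. After injury, those of Plxnd1, Nrp1, Sema4f and Sema3d were likewise added. Alternatives were other scaling factors, DESeq2 1.42.0, limma-voom (limma 3.58.1), other filters, 2 groups alone, an adjusted p of 0.01, a replicate block and each library left out. A fit without both uninjured replicates 2 and 3 was added once the data had been seen.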

Additional observations from a re-analysis of the deposited data

How the results depend on the processing

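No log2 fold change of a named gene that was past the threshold changed sign under any alternative. The 2 genes called higher after injury became 1 with upper-quartile factors, 2 groups alone or an adjusted p of 0.01. They became 5 with DESeq2's Wald test or no filter on low counts, and 1 to 4 with a library left out. Limma-voom kept the count at 2, with Nrp1 in place of Sema5b, where 8.68% of all genes were called higher. Of all genes, 8.99% were called higher in the fit reported, 7.47% with upper-quartile factors and 5.96% with 2 groups alone. The share was 10.6% with DESeq2's Wald test, 6.08% with no filter on low counts and 4.49% to 12.9% with a library left out. The 3 called lower became 6 with DESeq2's Wald test, 1 with 2 groups alone, 0 at 0.01 and 0 to 18 with a library left out. Of all genes, 2.87% were called lower in the fit reported, 6.89% with DESeq2's Wald test and 1.88% with 2 groups alone. That share was 0.625% to 8.96% with a library left out. The 22 called lower in cultures against injured cortex became 13 at 0.01 and 13 to 25 with a library left out. The share of all genes called lower there was 22.9% to 29.4% with a library left out, against 30.1% in the fit reported. Counts higher against injured cortex (13) and higher and lower against uninjured cortex (10 and 24) stayed within 1.5 times under the alternatives run. With a library left out they were 9 to 14, 8 to 11 and 19 to 28. In the same order, 14.6% to 19.5%, 22.6% to 28.5% and 27.2% to 36.4% of all genes were then called. Upper-quartile factors shifted the median of all genes by -0.13 after injury, and by -0.07 and -0.19 in cultures against injured and uninjured cortex; of all calls after injury, 64.0% were then higher, 60.6% with DESeq2's Wald test and 75.8% in the fit reported. Same-numbered libraries of different groups correlated at -0.09 to 0.35 in their deviations, and those of different number at -0.32 to 0.27. These ranges overlap and cannot decide whether libraries were paired. The design text states no pairing, so the numbers were not taken as pairing. With a replicate block 1 gene was called higher and 3 lower after injury, 13 and 22 in cultures against injured cortex, and 11 and 25 against uninjured cortex. Depth limits the genes under about 1 CPM, such as Sema3a, Efna5, Slit3 and Ephb2, which rest on few counts in a group.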
